A study of Rattus norvegicus with 6 samples.

Results

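The genes described are 8 that encode peptides made by neurons of the hypothalamus, namely Oxt, Hcrt, Npvf, Vip, Pmch, Cartpt, Ghrh and Sst, out of 12167 genes measured on all arrays. They were picked as hypothalamic peptides of which several were high on the array of the third ventricle ependyma. The members were thus chosen by their intensity on the ependyma array, and the differences of that array from the other arrays are given below as a description with no test. Each gene had 1 probe with a single gene symbol, so the 8 genes are 8 probes, each read on 6 one-colour arrays of normal adult male Sprague-Dawley rats. The arrays carried the ependyma of the third ventricle (1 array, a pool of 2), subfornical organ (1 array, a pool of 2), subcommissural organ (1 array, a pool of 2), pineal gland (2 arrays) and total brain (1 array, a pool of brains used as the reference), and no animal is described as treated or mutant. What was pooled is not stated, nor whether 1 or 2 animals gave the pineal gland arrays. All but total brain were cut out with a laser under the microscope. The ependyma came from ventricular wall away from the subfornical and the subcommissural organ, and its level along the ventricle is not stated in the labels.

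The hypothalamus forms the wall and floor of the third ventricle, and several of its peptide neurons sit close to the layer of ciliated ependymal cells that lines the cavity. Each peptide is cut from a larger precursor by convertases inside dense core vesicles and acts through G protein-coupled receptors. The genes are known for marking small, separate groups of neurons: oxytocin neurons of the paraventricular and supraoptic nuclei, orexin and melanin-concentrating hormone neurons of the lateral hypothalamus, and the clock neurons of the suprachiasmatic nucleus that make vasoactive intestinal peptide. Ependymal cells themselves are known for motile cilia, not for these peptides.

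Values are deposited intensities on a linear scale, and they compare arrays for 1 probe, never 1 probe with another. The 6 arrays had medians between 1.04 and 1.07, and between 35006 and 35052 of 35129 probes had a value on each. No detection call was used, so the pooled median of 1.05 served as a lower bound: a fold against a smaller value is written as at least so many fold. Counts at 4-fold use all values down to a floor of 0.142, so a counted gene can have a smaller fold at the bound. Between the pineal gland arrays, the only pair, 2.86% of 8555 genes differed at least 4-fold and log2 differences had a standard deviation of 0.77. The spread depended on level. Of 539 genes under the median, 28.9% differed at least 4-fold, with a standard deviation of 1.79. From the median to the 75th percentile it was 2.29% of 3412 genes (standard deviation 0.78), and over the 75th percentile 0.239% of 4604 (0.52). A 4-fold difference that rests on values below the bound was thus common within this pair. Labels were checked against known markers. In the ependyma 9 of 10 measured genes of motile cilia were at least 4-fold above total brain. Tekt1, a tektin of the axoneme, was at 233 against 6.33. In the subcommissural organ 9 of 9 were at least 4-fold above total brain as well, with Tekt1 at 192. Of 10 measured between these structures none differed 4-fold, so the cilia genes do not tell the ependyma from the subcommissural organ. The probe of Foxj1, the master factor of motile cilia, was below 1.05 on all arrays. The pineal enzyme gene Asmt was at 80.4 and 72.4 in the pineal gland and at most 0.747 elsewhere. In the subfornical organ the angiotensin receptor gene Agtr1a, a usual marker of it, was at 1.96 against 5.33 in total brain.

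All 8 peptide genes were at or above 1.05 on the ependyma array. The number was 3 of 8 in the subfornical organ, 2 in the subcommissural organ, 1 and 2 on the pineal gland arrays and 5 in total brain. For comparison, between 65.3% and 68.7% of all 12167 genes reached that level on each array. Set against total brain, Oxt, Hcrt, Npvf and Ghrh were at least 4-fold higher in the ependyma, Vip and Cartpt were higher by less than that, and Pmch and Sst lay within a factor of 4 as well. Of all 9104 measured genes 7.38% were at least 4-fold higher in this comparison and 9.34% at least 4-fold lower, and nothing is read from the 4 of 8, among which Ghrh counts only through a total brain value under the floor, since the same array chose the genes. The 8 genes fell into 3 groups: Oxt, Hcrt and Npvf stood at least 4-fold above every other array, Vip and Cartpt were highest in the ependyma by a smaller margin, and Pmch, Ghrh and Sst were near the bound or near total brain.

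**Figure D1:**
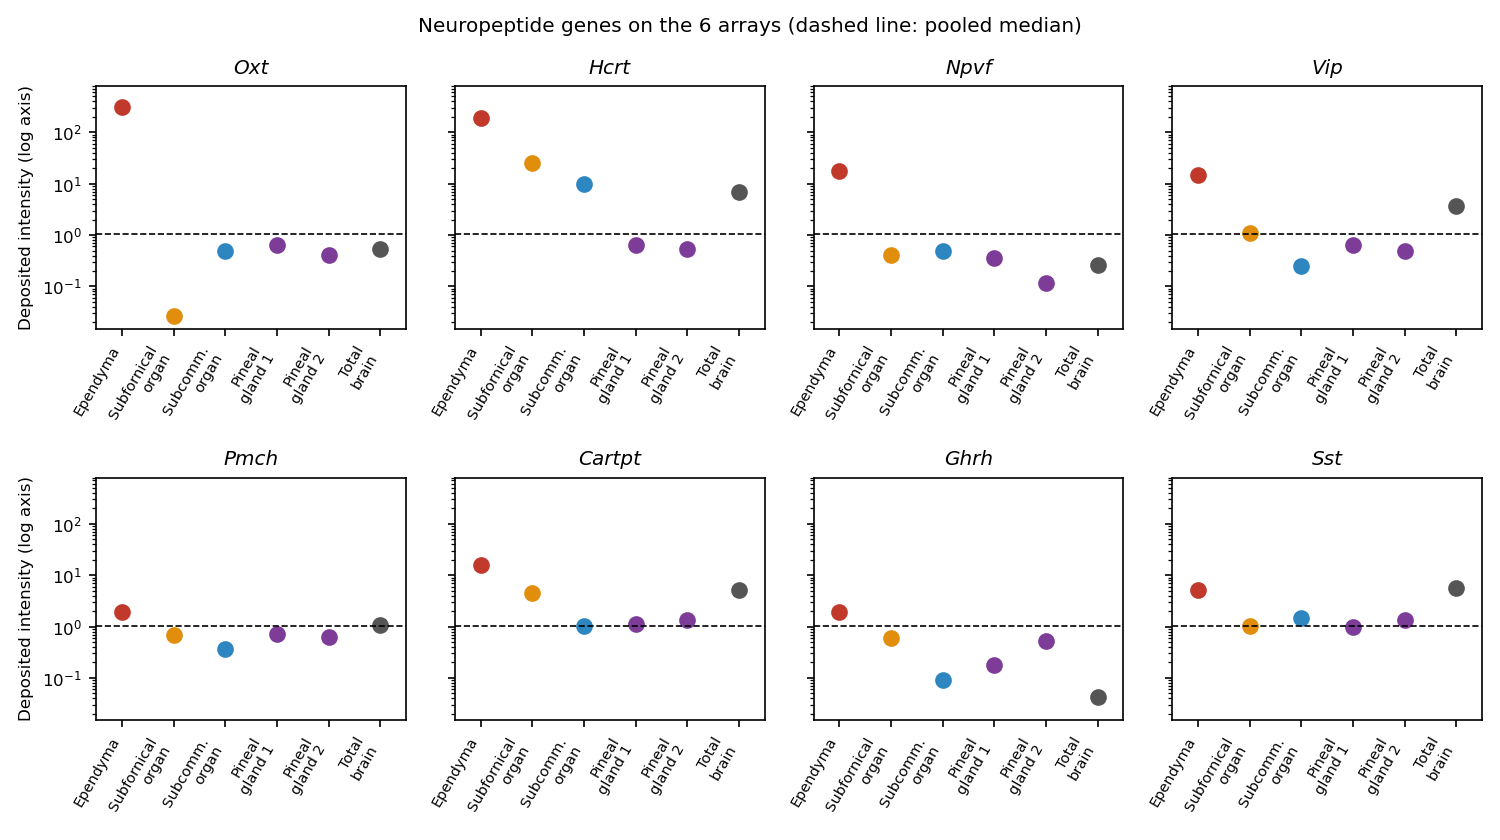
Deposited intensity (log axis) of the 8 peptide genes, 1 panel per gene, with 1 point per array and the pooled median of 1.05 as a dashed line. Oxt and Npvf lie above the line only on the ependyma array, Hcrt lies above it on 4 arrays, and Sst is about as high in total brain (5.53) as in the ependyma (5.10).

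Oxt, Hcrt and Npvf are shown with the 250 bases before the transcript start, because they are the genes that stood apart on the ependyma array and their upstream letters differ from each other. The sequences are those of RefSeq on the GRCr8 build, whose table of promoter windows held 7 of the 8 genes, without Pmch. Capitals mark the motifs searched on both strands: TATAAA, the TATA box; TGACC, the core bound by nuclear receptors; TGACG, the core bound by cAMP-responsive factors; TGACGTCA, its palindrome, which holds TGACG on each strand; and TAATTA, a homeodomain palindrome. The Oxt stretch is chr3:138235504-138235753 on the plus strand, that of Hcrt chr10:86191525-86191774 on the minus strand and that of Npvf chr4:81047046-81047295 on the minus strand.
Oxt: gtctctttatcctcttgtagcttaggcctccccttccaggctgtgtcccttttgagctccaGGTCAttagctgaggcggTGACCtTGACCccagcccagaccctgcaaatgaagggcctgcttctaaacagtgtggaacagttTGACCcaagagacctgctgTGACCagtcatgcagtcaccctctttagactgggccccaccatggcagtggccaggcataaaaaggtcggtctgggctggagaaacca
Hcrt: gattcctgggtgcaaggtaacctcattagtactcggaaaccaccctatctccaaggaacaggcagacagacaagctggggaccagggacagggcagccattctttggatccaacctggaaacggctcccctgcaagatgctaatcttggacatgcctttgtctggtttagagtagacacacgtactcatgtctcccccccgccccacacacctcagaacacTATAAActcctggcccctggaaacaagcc
Npvf: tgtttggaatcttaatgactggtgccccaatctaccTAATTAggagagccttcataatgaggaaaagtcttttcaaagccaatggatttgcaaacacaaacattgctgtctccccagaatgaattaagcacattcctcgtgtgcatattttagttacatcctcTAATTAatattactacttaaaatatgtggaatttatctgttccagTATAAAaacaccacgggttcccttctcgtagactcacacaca

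The Oxt stretch held TGACC at 5 places, between 189 and 84 bases before the start, of which a pair lies 1 base apart from 171 to 161 bases before it. TGACC occurs in 40.5% of the 33469 rat windows of 300 bases (250 before and 50 after a start). Hcrt had TATAAA from 29 to 24 bases before the start, and Npvf from 42 to 37, a motif of 14.2% of windows. Npvf also had TAATTA at 2 places, from 214 and from 87 bases before the start, a motif found in 5.36% of windows. No motif was found in all 3 stretches. The palindrome TGACGTCA, present in 1.83% of windows, was found in the windows of Cartpt, from 142 to 135 bases before the start, and Sst, from 3 to 10 bases after the start that RefSeq gives. Vip had TGACG from 97 to 93 bases before the start, a core found in 21.2% of windows. A match is only a match of letters and shows no binding.

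Oxt encodes the precursor of oxytocin, which acts in birth, milk release and social behaviour. Oxt was at 317 in the ependyma, 0.027 in the subfornical organ, 0.496 in the subcommissural organ, 0.654 and 0.414 in the pineal gland, and 0.535 in total brain. The ependyma was thus at least 302-fold above each other array, all of which lay below 1.05 and have no order among themselves. Oxt was among 53 genes at least 4-fold above each other array, which are 0.641% of the 8262 genes at or above 1.05 in the ependyma. Avp, which encodes vasopressin and lies next to Oxt on chromosome 3, had a probe with no value on any array. Why the values are missing is not stated, so the blank does not tell a dim probe from a very bright one, and Avp is left without a level.

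Hcrt encodes the precursor of the orexins, which keep animals awake and whose loss gives narcolepsy. Hcrt was at 188 in the ependyma, 25.1 in the subfornical organ, 9.68 in the subcommissural organ, 0.652 and 0.543 in the pineal gland, and 6.98 in total brain. The ependyma was 26.9-fold above total brain and 7.48-fold above the subfornical organ, the next highest array. Among the peptide genes that reached 1.05 on those arrays, Hcrt alone was also above total brain, though by less than 4-fold, in both the subfornical and the subcommissural organ. The subfornical organ was 3.60-fold and the subcommissural organ 1.39-fold above total brain, and neighbours in the order from subfornical organ through subcommissural organ to total brain were each within 4-fold. Both pineal gland arrays were below 1.05.

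Npvf encodes the precursor of RF-amide related peptides, made in the dorsomedial hypothalamus, which restrain the reproductive axis. The Npvf probe read 17.9 in the ependyma, 0.406 in the subfornical organ, 0.491 in the subcommissural organ, 0.351 and 0.117 in the pineal gland, and 0.267 in total brain. All arrays but the ependyma lay below 1.05, and the ependyma was at least 17.1-fold above them.

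Vip encodes vasoactive intestinal peptide, which couples clock neurons of the suprachiasmatic nucleus and is also made by cortical interneurons. Vip stood at 14.7 in the ependyma, 1.11 in the subfornical organ, 0.255 in the subcommissural organ, 0.654 and 0.494 in the pineal gland, and 3.71 in total brain. The ependyma was 3.97-fold above total brain, just short of 4-fold, and at least 14.0-fold above the subcommissural organ. Cartpt, the precursor of a peptide that reduces feeding, is made in several hypothalamic nuclei. Cartpt stood at 15.9 in the ependyma, 4.49 in the subfornical organ, 1.02 in the subcommissural organ, 1.10 and 1.33 in the pineal gland, and 5.21 in total brain. The ependyma was 3.05-fold above total brain and 3.55-fold above the subfornical organ, while subfornical organ and total brain were within 1.16-fold of each other.

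Sst encodes somatostatin, which is made by periventricular neurons, inhibits growth hormone release and is also common in cortical interneurons. Its probe was at 5.10 in the ependyma, 1.03 in the subfornical organ, 1.45 in the subcommissural organ, 0.977 and 1.33 in the pineal gland, and 5.53 in total brain. The ependyma was level with total brain and at least 4.86-fold above the subfornical organ. Ghrh encodes the releasing hormone of growth hormone, made in the arcuate nucleus. Its probe was at 1.93 in the ependyma, 0.607 in the subfornical organ, 0.092 in the subcommissural organ, 0.180 and 0.518 in the pineal gland, and 0.042 in total brain. Only the ependyma passed 1.05, and because the others lie below the bound the fold over total brain is at least 1.84. Pmch encodes the precursor of melanin-concentrating hormone, which promotes feeding and sleep. Pmch stood at 1.93 in the ependyma, 0.687 in the subfornical organ, 0.361 in the subcommissural organ, 0.705 and 0.634 in the pineal gland, and 1.07 in total brain. The ependyma was 1.81-fold above total brain, a gap of 0.86 on the log2 scale against a standard deviation of 0.77 between the pineal gland arrays. The sizes of difference of Hcrt and Pmch, both peptides of the lateral hypothalamus, are not compared. Pmch was at most 1.93 on all arrays, and levels near 1.05 cannot be told from background.

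**Figure D2:**
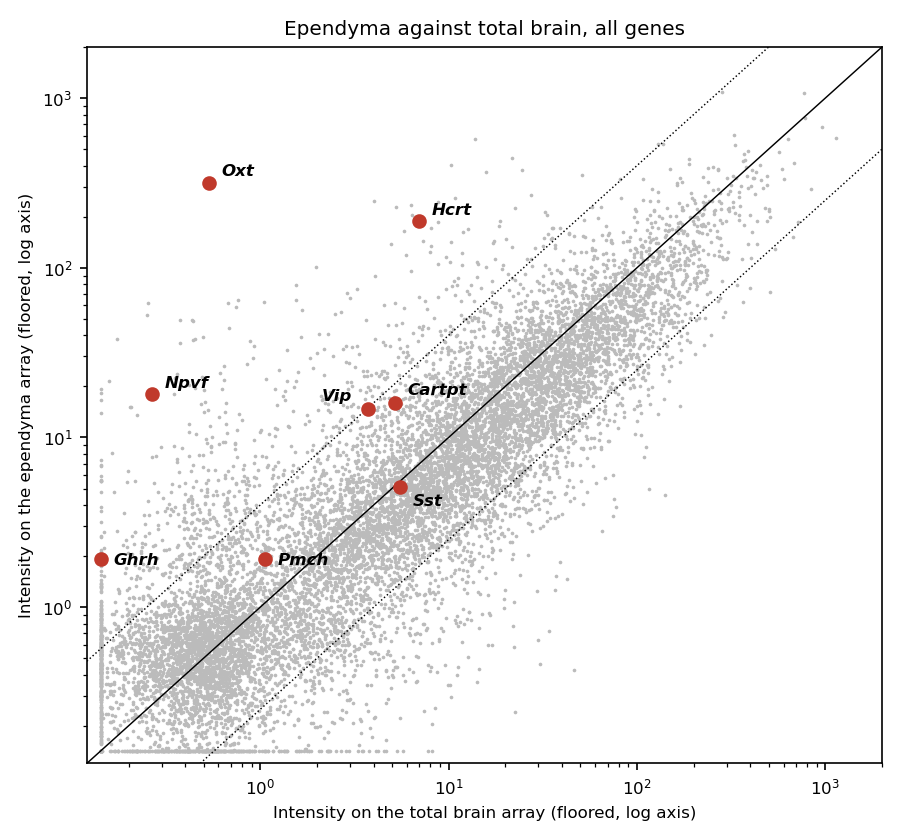
Intensity of each gene on the ependyma array (vertical) against total brain (horizontal), both on log axes with values below 0.142 raised to it, with all genes in grey and the 8 peptide genes in red. The solid line marks equal levels and the dotted lines a 4-fold difference: Oxt (317 against 0.535), Npvf and Hcrt lie far above it, and Sst lies on the line of equal levels.

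The pineal gland, which lies outside the hypothalamus, was set against total brain with limma, the comparison in which replicate arrays were present on a side. It shares the total brain array with the comparison that chose the genes. Its only residual degree of freedom was 1, from the pineal gland pair, and total brain was assumed to vary like that pair. The moderated standard error was 0.72 for every gene, so that a call was in effect a log2 difference of at least 1.82. Of 9072 genes tested, 7.67% passed as higher and 16.1% as lower, so that 32.2% of the calls were higher, against 55.0% after scaling to the 75th percentile and 47.4% after quantile normalization. Of the peptide genes 5 entered the test. Of these, 3 (Hcrt, Vip and Pmch) entered only through their level in total brain, which had to lie above that of the pineal gland, so the number that passed supports nothing. Oxt, Npvf and Ghrh were below 1.05 on both sides and were not tested.

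For Hcrt, Vip and Pmch the values are therefore given without a test. Hcrt was at 0.652 and 0.543 in the pineal gland against 6.98 in total brain, and Vip at 0.654 and 0.494 against 3.71. With all pineal gland values under 1.05, the folds are bounds, at least 6.64-fold lower for Hcrt and at least 3.53-fold for Vip. Pmch was at 0.705 and 0.634 against 1.07. For Sst the values were 0.977 and 1.33 against 5.53, a difference of -2.28 with a limma adjusted p = 0.0097. For Cartpt they were 1.10 and 1.33 against 5.21, a difference of -2.11 with a limma adjusted p = 0.018. Both pineal gland arrays were below total brain for Sst and for Cartpt. The calls of Sst and Cartpt each held in 2 of 6 alternative settings (limma adjusted p between 0.0066 and 0.21 for Sst, and between 0.013 and 0.19 for Cartpt). These were log2 of value plus 1 and the mean of all probes, of which the latter leaves single-probe values unchanged. Neither call held after quantile normalization (limma adjusted p = 0.067 for Sst and 0.071 for Cartpt). Nor did they after scaling to the 75th percentile (limma adjusted p = 0.07 and 0.082).

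In the other organs of the ventricle wall there was 1 array on each side and no replicate check. Of the 5 peptide genes measured in each comparison, 0 were at least 4-fold above total brain. Among all genes, 7.19% of 9167 measured were so in subfornical and 8.62% of 9114 in subcommissural tissue. Pmch and Sst in the subfornical organ, and Vip, Pmch and Cartpt in the subcommissural organ, were measured through total brain alone. Those could not be called higher, so nothing is read from the 0. Hcrt in the subfornical organ passed 4-fold after quantile normalization and after scaling to the 75th percentile. For the genes measured through total brain alone the direction was fixed as lower, so their values are given without a call. Sst was at 1.03 in the subfornical organ against 5.53, at least 5.27-fold lower, where 9.63% of all genes were at least 4-fold lower. In the subcommissural organ, where 14.9% of genes were at least 4-fold lower, Vip stood at 0.255 against 3.71, at least 3.53-fold lower. Cartpt was at 1.02 there against 5.21, at least 4.96-fold lower. In bulk samples fewer cells of a type and less RNA per cell cannot be told apart.

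Against the other ventricular structures directly, the ependyma was at least 4-fold higher for 5 of 8 genes over the subfornical organ, where 6.61% of 9050 genes were, and for 7 of 8 over the subcommissural organ, where 7.85% of 8887 were. Both comparisons use the array that chose the genes. The gene below 4-fold over the subcommissural organ was Sst, 3.52-fold higher. Pmch and Ghrh are counted there on values below the bound, and at the bound both were at least 1.84-fold higher.

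Genes of the same pathway were read beside the peptides, by role. The list of receptor genes held 15, none of them for Cartpt, and all were on the arrays. Of these, 8 were measured in the ependyma against total brain, with none at least 4-fold higher and 1 lower. Their median log2 difference was -0.88, against -0.41 for all genes. Vipr2, a receptor for vasoactive intestinal peptide, was at 2.09 in the ependyma, 3.76 in the subfornical organ, 35.8 in the subcommissural organ, 1.5 and 2.49 in the pineal gland, and 14.4 in total brain. It was thus 6.92-fold lower in the ependyma, whose Vip level was the highest of the 6 arrays. Hcrtr1, a receptor for orexin, was at 2.31 in the ependyma, 0.660 in the subfornical organ, 3.58 in the subcommissural organ, 0.543 and 0.688 in the pineal gland, and 4.19 in total brain. A second probe of Hcrtr1 gave the same order for ependyma (2.21), subcommissural organ (2.69) and total brain (2.82). Both probes of the oxytocin receptor gene Oxtr were below 1.05 on all 6 arrays, as were Npffr1 and Npffr2, the receptors for the Npvf peptides. Adcyap1r1, which binds the related peptide PACAP and more weakly vasoactive intestinal peptide, was at 53.2 in the ependyma against 146 in total brain by its brightest probe, while its other probes were below 1.05 on every array. Ghrhr was at 1.37 against 4.15, 3.04-fold lower, and Sstr1 at 1.34 against 2.49.

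**Figure D3:**
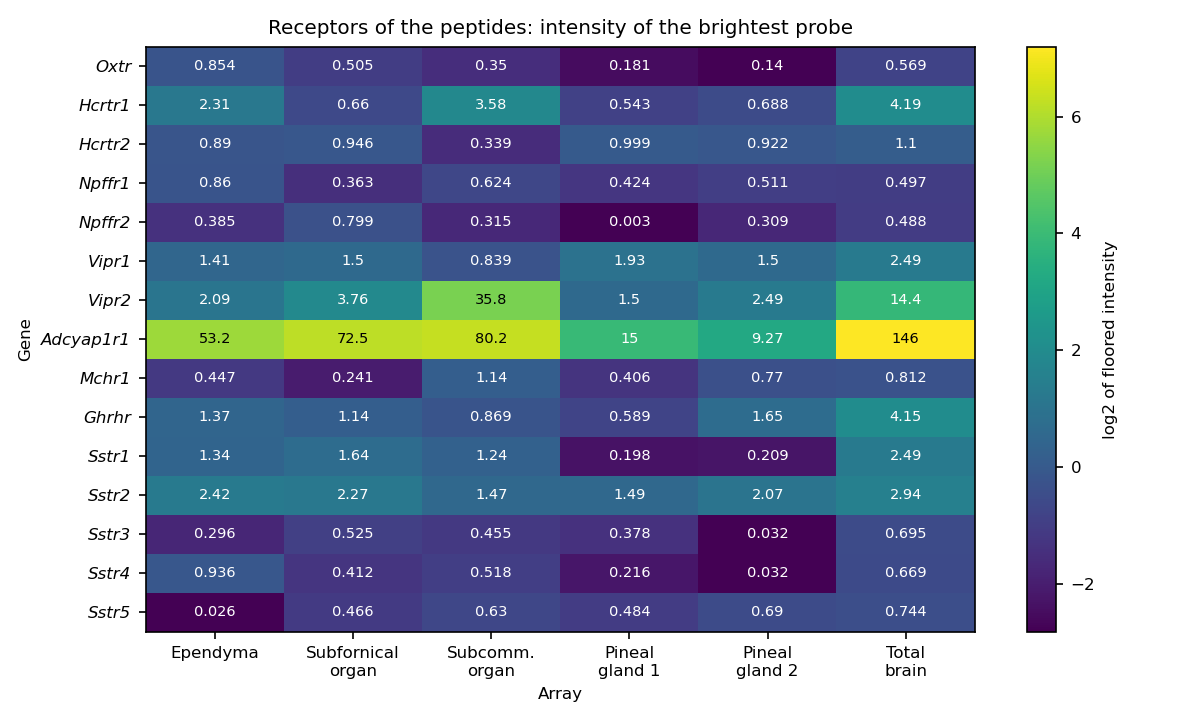
Intensity of the brightest probe of the 15 receptor genes (rows) on the 6 arrays (columns), with the deposited value written in each cell and the colour giving log2 of the floored intensity, to be read within a row. Vipr2 is highest in the subcommissural organ (35.8), and Oxtr, Npffr1 and Npffr2 are below 1.05 on every array.

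Of 18 genes of peptide processing and dense core vesicles, 14 were on the arrays and all 14 were measured. None differed 4-fold between ependyma and total brain, with a median of -1.42. The 4 furthest from 0 were all lower: Vgf, a secreted granin-like protein, at 19.9 against 77.3, Chgb, a chromogranin, at 6.34 against 24.5, Cadps, which primes dense core vesicles for release, at 10.9 against 41.6, and Scg3, another granin, at 1.08 against 4.03. Cpe, which trims peptides after the convertases, was named after its values were seen and was at 430 in the ependyma, 510 in the subfornical organ, 162 in the subcommissural organ, 180 and 106 in the pineal gland and 373 in total brain.

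Of 30 other neuropeptide genes, 21 were on the arrays and 13 measured in this comparison, with 3 at least 4-fold higher, 3 lower and a median of -0.97. Gal, which encodes galanin, was at 45.8 in the ependyma, 54.2 in the subfornical organ, 1.67 in the subcommissural organ, 20.3 and 10.1 in the pineal gland, and 5.26 in total brain. Galp, a relative of galanin made in the arcuate nucleus, was at 4.96 against 0.519, at least 4.72-fold higher, and Rln3, a relaxin-family peptide of the hindbrain, at 3.03 against 0.286, at least 2.89-fold. Pdyn, which encodes dynorphins and is made by orexin neurons among others, was at 1.06 against 9.06, 8.57-fold lower. Crh, Gnrh1 and Kiss1, which drive the adrenal and reproductive axes, were below 1.05 in both ependyma and total brain. Other neuropeptides of the list thus lay on both sides of total brain.

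Of 38 hypothalamic transcription factors listed, 17 were on the arrays and 10 measured, with 1 at least 4-fold higher, 4 lower and a median of -1.47. With the floor at the pooled 50th percentile 0 were higher and 3 lower. Vax1, a homeobox factor of the ventral forebrain, was at 3.20 against 0.580, at least 3.04-fold higher, and at 27.9 in the subfornical organ. Lhx9, which in mouse and zebrafish promotes Hcrt expression, was at 0.369 against 5.84, at least 5.56-fold lower, and Ebf3, a factor of neuronal differentiation, stood at 0.851 against 12.6. Sim1, required in mouse for oxytocin neurons to form, had a probe below 1.05 on all arrays. Of 26 partner genes of peptide and monoamine neurons 22 were on the arrays and all 22 were measured, with 2 higher and 5 lower. Their median was -0.49, which was -0.03 with values below the bound raised to it and turned to 0.42 after scaling to the 75th percentile. Slc18a2, which loads monoamines into vesicles, was at 2.86 against 0.481, at least 2.72-fold higher, and Nptx1, a synaptic pentraxin, at 19.4 against 115, 5.94-fold lower. Nptx2, a pentraxin abundant in orexin neurons, was at 0.551 against 1.07, only 1.02-fold lower at the bound, so no difference is read from it.

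General neuron markers differed from total brain in the other direction from the leading peptides. Of 10 measured in the ependyma against total brain, 8 were at least 4-fold lower and none higher, with a median of -2.46 (5 lower after scaling to the 75th percentile and also with log2 of value plus 1). Thy1, a neuronal surface protein, was at 72.0 against 509, and the neurofilament genes Nefl and Nefm at 5.83 against 38.6 and 1.63 against 14.5. The summed level of the 11 neuron genes on the arrays was 174 in the ependyma, 89.0 in the subfornical organ, 69.3 in the subcommissural organ, 136 and 89.1 in the pineal gland, and 970 in total brain. Of these 11 genes 3 were below 1.05 in the ependyma. Among them was Snap25, whose probe was below 1.05 on all arrays (0.57 in total brain). Such a sum follows its brightest probes. Thy1 and Slc17a6, a glutamate transporter at 44.8, made up most of it in the ependyma. Slc17a6 made up most of it in the pineal gland, at 94.1 and 53.5, and Thy1 in total brain, at 509. Of 8 measured against the subfornical organ, 1 was at least 4-fold higher in the ependyma and the median was 1.44 (0.95 with values below the bound raised to it). Of 8 measured against the subcommissural organ, 3 reached 4-fold in the ependyma's favour and the median was 1.92 (1.46 at the bound). Grin1, an NMDA receptor subunit, went against this, at 26.4 in the ependyma against 39.7 in the subcommissural organ, and Gad1, which makes GABA, was at 4.96 against 5.37 in the subfornical organ. Markers of oligodendrocytes, the myelin-forming cells, were lower against total brain as well: of 10 measured, 9 were at least 4-fold lower in the ependyma, with a median of -2.60, among them Mag, a myelin glycoprotein, at 15.5 against 104. The part of neuronal RNA in the peptide values was not tested.

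**Figure D4:**
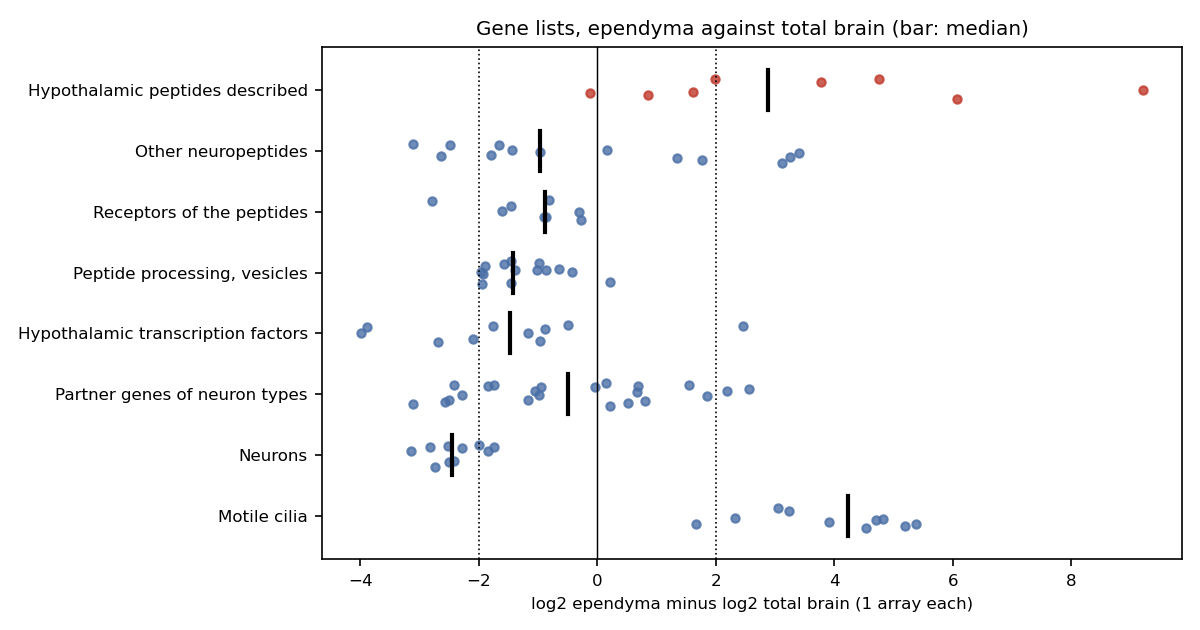
Difference in log2 intensity, ependyma minus total brain (1 array each), for every measured gene of 8 gene lists, with the 8 peptide genes in red, a bar at each list's median and dotted lines at 4-fold. The peptide genes spread from -0.12 (Sst) to 9.21 (Oxt, 8.24 with total brain raised to the bound), all but 1 above 0, whereas neuron markers have a median of -2.46 and motile cilia genes of 4.22.

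The profiles of the 8 genes over the 6 arrays were compared as log2 values centred on each gene's mean. Vip and Cartpt lay closest among those high enough for the comparison, with a root mean square difference of 0.73. Oxt and Npvf were 1.71 apart, and Npvf was the gene nearest to Oxt among 6820 with a level of at least 6.04 on some array. The gene nearest to Npvf was Apcs, the serum amyloid P component, at 16.6 in the ependyma and at most 0.536 elsewhere (root mean square difference 0.61, r = 0.96 over 6 arrays). Tnnt1, slow skeletal troponin T, was nearest to Hcrt, at 227 in the ependyma, 15.7 in the subfornical organ, 14.0 in the subcommissural organ, 0.954 and 1.05 in the pineal gland, and 5.24 in total brain (0.57, r = 0.98). Nearest to Vip was Tnr, a matrix protein of perineuronal nets (0.54, r = 0.96), and nearest to Cartpt was Ppp1r1b, the dopamine-regulated phosphatase inhibitor DARPP-32 (0.49, r = 0.94). These 6 arrays cover 5 tissues, and with a single high array a large r is common, so the values describe and no test was made.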

How the data were processed

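RNA of each sample (3 ng, per the labels) was amplified in 2 rounds, labelled and read in the Cy5 channel. The deposited table gives a linear intensity for each probe on each array. The scale was read from the values, and so was a common centre of the arrays, whose medians lie close together. Scanner, background correction and scaling are not given in the sources used here. Entries of -9999 were treated as missing. Among 35129 probes, 16865 had a single symbol in the platform annotation, 165 had several and 18099 were not listed. Gene identifiers of 16836 were found in the RefSeq table of GRCr8, which updated 1 symbol. Before taking log2, a floor of 0.142 (5th percentile over all arrays) was applied. A gene was its brightest probe by mean, and counted as measured at 1.05 (50th percentile over all arrays) or more on the higher side. The pineal gland was the average log2 value of its pair. The test was limma 3.58.1 (lmFit, eBayes, two-sided, Benjamini-Hochberg over all measured genes, threshold 0.05) in R 4.3.3, on all 6 arrays with a mean per tissue. The code was run on simulated data in which every gene had the same spread. The spread of the pineal gland pair depended on level, so the simulation does not check the p-values on these data. The limma p-values measure only the spread between the pineal gland arrays, which may be technical. Precision is limited by the number of arrays. Genes named from each list were the 4 furthest from 0 in ependyma against total brain, with all receptors and Avp free to be named. The genes and lists were chosen with earlier results of these data known. Crh, Gnrh1, Kiss1, Sim1, Nptx2, Slc17a6, Gad1, Snap25, Foxj1, Asmt and Agtr1a were named outside that rule after their values were seen. Alternatives were other normalizations, floors, filters and probe summaries.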

Additional observations from a re-analysis of the deposited data

Results flagged for a closer look

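Hcrt differed from total brain in opposite directions in ependyma and pineal gland. It was higher in the ependyma by a log2 difference of 4.75 (188 against 6.98) and lower in the pineal gland by a log2 difference of -3.55 (0.652 and 0.543 against 6.98). The pineal gland values lie below 1.05, so the second difference is no exact size: at the bound Hcrt is at least 6.64-fold lower there, and it was measured in that comparison through total brain alone. Both differences use the same total brain array, and the difference between them was not tested.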

How the results depend on the processing

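No paired analysis was possible because only the pineal gland had more than 1 array. Without either pineal gland array the limma test has no residual degree of freedom and was not run. The count of genes at least 4-fold above each other array was then 59 to 61 (53 as reported). Leaving out an array cannot lower this count. The log2 difference of ependyma minus total brain ranged over the alternatives from 7.70 to 9.67 for Oxt, 4.57 to 5.21 for Hcrt, 3.90 to 6.53 for Npvf, 1.74 to 2.45 for Vip, 1.45 to 2.07 for Cartpt, 0.88 to 3.85 for Ghrh, 0.50 to 1.32 for Pmch and -0.12 to 0.34 for Sst. The direction of Sst therefore has no stable side. Oxt, Hcrt and Npvf stood at least 4-fold above each other array in all alternatives run. For these single-probe genes the filters and the mean of all probes leave the values unchanged. Only the other normalizations, the higher floor and the pseudocount gave new values. Vip also stood at least 4-fold above each other array after quantile normalization and after scaling to the 75th percentile.

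In the pineal gland, all limma calls came to 841 with the floor at the pooled 50th percentile, 991 without a filter and 1206 after quantile normalization, against 2160 as reported. Genes at 4-fold numbered 877 in the ependyma with the filter at the pooled 75th percentile and 770 with log2 of value plus 1 (1522 as reported), 866 and 802 in the subfornical organ (1542), and 1411 and 1300 in the subcommissural organ (2140). Genes at least 4-fold above each other array numbered 35 and 31 (53). The pseudocount itself shrinks folds of low values, and the stricter filter tests fewer genes. Peptide genes at least 4-fold higher in the subfornical organ numbered 1 without a filter (Ghrh), 1 after quantile normalization and 1 after scaling to the 75th percentile (Hcrt in both), and 0 as reported. The median of all genes, ependyma minus total brain, was -0.41 as deposited, -0.06 after quantile normalization and 0.08 after scaling, where the 4-fold split became 56.5% and 66.9% higher in place of 44.2%. No detection call was used, so levels near 1.05 cannot be told from background.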

Other observations

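In the subfornical organ, Kiss1, which encodes the kisspeptin precursor, was at 18.6, against 0.916 in the ependyma, 0.167 in the subcommissural organ, 0.337 and 0.266 in the pineal gland and 0.312 in total brain. It was chosen after its values were seen, as were the genes that follow. Sncg, a synuclein, was at 67.7 in the subfornical organ against 5.14 in total brain, and Six6, a homeobox factor of hypothalamus and eye, at 5.70 against 0.624. Th, the first enzyme of dopamine synthesis, was at 12.8 in the ependyma, 2.00 in the subfornical organ, 2.01 in the subcommissural organ, 0.842 and 1.02 in the pineal gland and 11.0 in total brain. Slc6a3, the dopamine transporter, was at 3.73 in the ependyma and at most 1.02 on the other arrays by its brightest probe. Nr4a2, a factor of dopamine neurons, was at 4.47 in the ependyma, 5.0 in the subfornical organ, 4.9 in the subcommissural organ, 4.39 and 4.56 in the pineal gland and 8.76 in total brain.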
